A study of Mus musculus with 12 samples.

Results

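The genes of the mitochondrial respiratory chain and ATP synthase were followed through the 12 libraries. Members were chosen by gene name: mitochondrially encoded genes whose names start with mt-Nd, mt-Co, mt-Cytb or mt-Atp, and nuclear genes named Nduf, Uqcr, Atp5, Cox followed by a number, Sdha to Sdhd and Cycs. These were 122 of the 55487 genes in the table, 13 of them mitochondrially encoded and 109 nuclear, after 12 names marked as pseudogenes (-ps) were left out. By name, the nuclear members were 41 subunits and 8 assembly factors of complex I, 4 subunits of complex II and 8 of complex III. They also held 19 subunits and 10 assembly factors of complex IV, 18 genes of ATP synthase and the gene of cytochrome c. Names alone set these classes, and Ndufb4c, Ndufs6b, Cox6c2 and Cox20b among them are annotated as processed pseudogenes. Atp5o is entered under different identifiers. All 13 mitochondrially encoded members and 102 nuclear members had at least 1 TPM in at least 3 libraries and were tested, and 5 members were listed at 0 in every library.

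RNA was sequenced after poly(A) selection from 4 groups of 3 biological replicates: spheres grown from cochlear glial cells, and cells plated from such spheres and differentiated for 14 days in SCDM, in SCDM/FGF or with FIBCL. All came from postnatal day 4 mice on a mixed C57Bl6 and FVB/N background, and several animals contributed to each culture. The spheres were grown in SCM, which held EGF, bFGF, IGF and heparan sulfate. SCDM, on a DMEM/F12 base, held 50 ng/ml of each of the neurotrophins BDNF and NT3, and SCDM/FGF held bFGF at 100 ng/ml on top of these. FIBCL was Forskolin (20 µM, an activator of adenylyl cyclase), ISX9 (20 µM), I-BET (1 µM, a BET bromodomain inhibitor), Chir99021 (10 µM, a GSK3 inhibitor) and, per the sample labels, the cytokine LIF (1000 U/ml), although the table heads these columns FIBC, the study's name for the mixture without LIF. These were given in Neurobasal Medium with bFGF, listed at both 50 and 100 ng/ml, and without BDNF or NT3. All media held the supplements B27 and N2. Base medium, growth factors and small molecules changed together between SCDM and FIBCL, and their effects cannot be told apart. The question put to the series was how the cells made with FIBCL compare with the spheres and with both control media.

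The respiratory chain passes electrons from NADH (complex I) or succinate (complex II) through complex III and cytochrome c to oxygen at complex IV, and pumps protons whose return drives ATP synthase. Its core hydrophobic subunits are encoded by the mitochondrial genome, which is transcribed from both strands into long precursors that are cut into shorter RNAs, while all other subunits, the whole of complex II and the assembly factors are encoded in the nucleus. Neurons are known for depending on oxidative phosphorylation, and glial cells for relying more on glycolysis.

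A pair of sequence features bears on how the mitochondrial values can be read, and the sequences are shown for that reason. The first is the member with the highest TPM, mt-Atp8, a subunit of ATP synthase. It lies on the plus strand of the mitochondrial genome at chrM:7766-7969 (GENCODE M21, GRCm38) and its last 43 bases, in capitals, are also the first bases of mt-Atp6 (chrM:7927-8607).
mt-Atp8: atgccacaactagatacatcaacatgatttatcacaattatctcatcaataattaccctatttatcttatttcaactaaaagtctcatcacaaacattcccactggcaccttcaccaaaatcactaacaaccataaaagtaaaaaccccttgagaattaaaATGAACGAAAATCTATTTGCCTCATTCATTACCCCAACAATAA
The other feature is a stretch of mitochondrial sequence inserted in nuclear chromosome 1, which the annotation lists as separate pseudogenes. Over 294 to 783 compared bases, these copies were identical to mt-Atp6, mt-Co2, mt-Co3 and mt-Nd4l, and the copy of mt-Nd3, Gm28438, differed at 1 of 345 bases. The copy of mt-Co1, Gm29216, differed at 6 of 492 bases, and that of mt-Nd4, Gm28439, was identical over 876 bases but listed at 0 in all libraries. The first 33 bases of mt-Nd3 (chrM:9459-9491, plus strand) and of its copy (chr1:24613087-24613119, minus strand) show that single difference, T3C counted from the first base of the gene, in capitals.
mt-Nd3: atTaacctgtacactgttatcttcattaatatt
Gm28438: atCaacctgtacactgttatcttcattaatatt

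The deposited values are TPM, which are corrected for transcript length, so that levels can be roughly compared between genes, least surely for very short ones. They hold no read number, and the depth of the libraries is unknown. For the tests each library was rescaled to a common level of 8434 broadly expressed genes, and these values are called scaled TPM. A member was called as risen or fallen at an adjusted p under 0.05 and a difference of at least 0.5 on the log2(scaled TPM + 1) scale (limma, over 16016 genes). The labels were checked against marker genes. The summed scaled TPM of 9 neuronal genes was 529 to 561 in FIBCL against 18.5 to 37.9 in SCDM, SCDM/FGF and spheres. That of 7 glial genes was 481 to 511 in spheres and 14.6 to 19.9 in FIBCL, and that of 6 mesenchymal genes was 5634 to 5892 in SCDM and 20.3 to 24.0 in FIBCL. That of 6 macrophage genes was 54.6 to 64.4 in spheres, 563 to 617 in SCDM, 416 to 486 in SCDM/FGF and 157 to 183 in FIBCL. The higher macrophage sum in FIBCL than in spheres did not hold for most genes of the list. In that comparison 1 of the 6 rose and 4 fell, with a median log2 difference of −0.69 and a range of −2.20 to 2.14. No gene of these 4 lists was at 0 in all libraries of a group. Between bulk samples that differ this far, fewer cells of a type and less RNA per cell cannot be told apart, and the part of the marker shift in the results below was not tested. A single entry annotated as ribosomal RNA (CT010467.1) took 3.06 to 4.49% of the listed TPM in FIBCL and 0.217 to 0.584% elsewhere. Its part in the shares below was not tested.

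RNA of the mitochondrially encoded members took a larger share of the transcriptome in FIBCL than in every other group, and the nuclear members did not follow to the same extent. The 13 mitochondrially encoded genes together took 9.87, 10.1 and 10.0% of the listed TPM in the 3 FIBCL libraries. They took 4.94 to 5.16% in SCDM, 4.38 to 4.95% in SCDM/FGF and 5.82 to 6.47% in spheres. The FIBCL libraries lay above all 9 others, and the spheres lay above both control media. The nuclear members took 1.93 to 2.09% in FIBCL, 1.73 to 1.80% in SCDM, 1.77 to 1.86% in SCDM/FGF and 1.86 to 1.97% in spheres, so that FIBCL and spheres overlapped. The listed TPM add up to less in FIBCL (899295 to 911076) than in SCDM (983632 to 986243), which raises shares in FIBCL. The nuclear sums themselves overlapped, at 17315 to 18992 TPM in FIBCL and 17043 to 17725 TPM in SCDM. The ratio of the mitochondrial to the nuclear sum, which does not depend on how libraries are scaled, was 4.82, 4.86 and 5.20 in FIBCL. It was 2.84, 2.85 and 2.87 in SCDM, 2.48, 2.56 and 2.66 in SCDM/FGF and 3.09, 3.19 and 3.49 in spheres. No library of one group fell in the range of another. On the log2 scale the mean ratio of FIBCL was 0.80 above SCDM, 0.95 above SCDM/FGF and 0.61 above spheres, with an SD of at most 0.09 within a group (n = 3). The ratio is a score over chosen genes and was given no test.

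**Figure D1:**
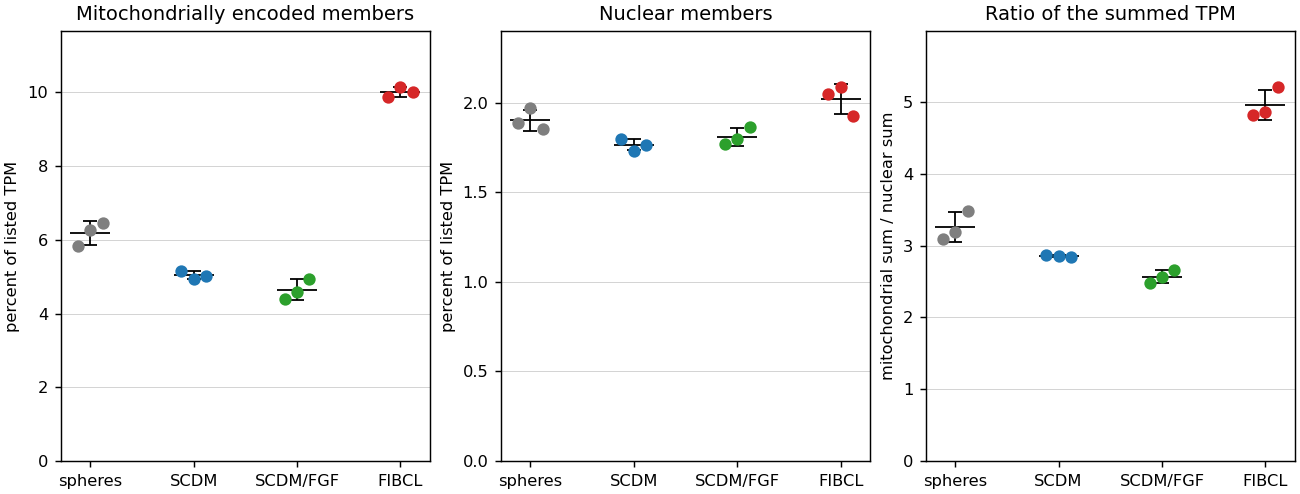
Percent of the listed TPM taken by the 13 mitochondrially encoded and the 109 nuclear members, and the ratio of their summed TPM (y axes, linear from 0), for the 4 groups (x axis). Points are libraries, and bars are the mean with the SD (n = 3). The ratio was 4.82 to 5.20 in FIBCL and 2.48 to 3.49 in the 9 other libraries.

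Against SCDM, all 13 mitochondrially encoded members rose in FIBCL, with a median log2 difference of 1.33 and a range of 1.12 to 2.05. Of all genes tested, 23.6% rose and 28.4% fell in this comparison, with a median of −0.07. Of the 102 nuclear members tested, 33 rose and 9 fell, with a median of 0.26. The libraries of both groups did not overlap for 12 of the 13 mitochondrial genes and for 73 of the 102 nuclear ones, beside 74.7% of all genes tested, so that the nuclear count is no more than that of genes in general. The nuclear count depended on the scaling. On the TPM as deposited, where the median of all genes moved to −0.40 and 15.4% of all genes rose and 43.3% fell, 13 nuclear members rose and 20 fell with a median of −0.13, while 12 mitochondrial genes rose with a median of 0.93 and mt-Co3 was no longer called.

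**Figure D2:**
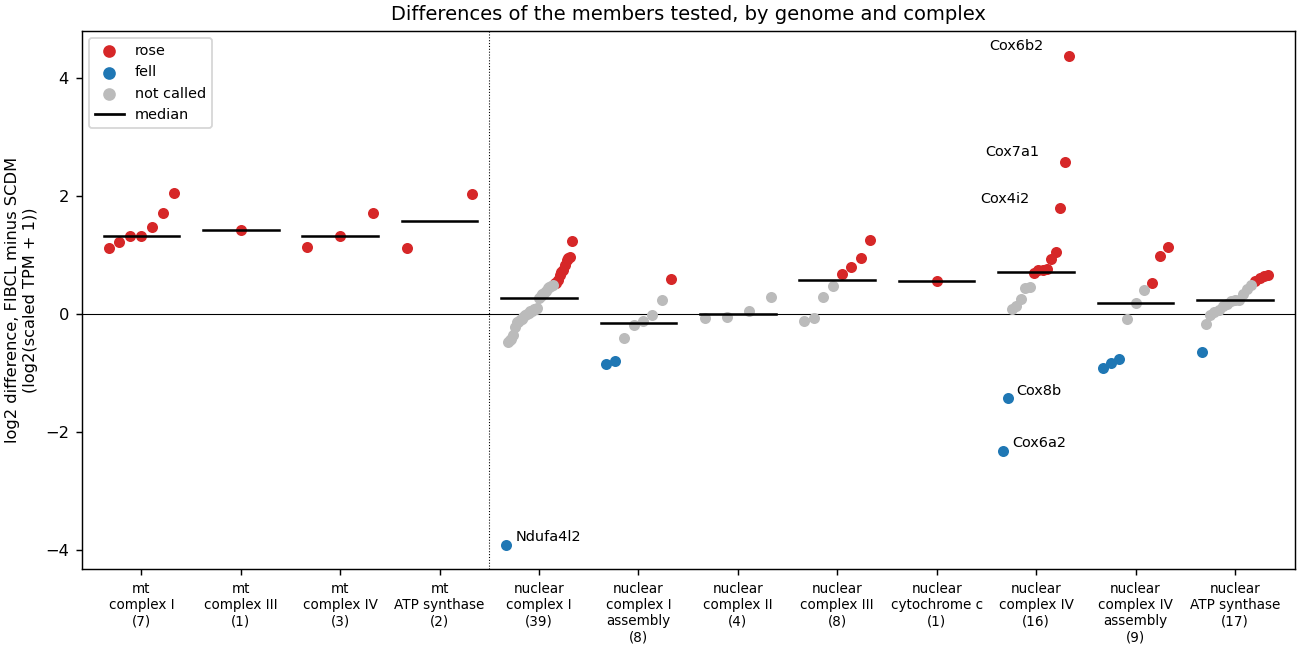
Log2 difference between FIBCL and SCDM (y axis) of each of the 115 members tested, grouped by genome, complex and role (x axis, number of genes in brackets), each group ordered by its values. Red points rose, blue points fell, grey points were not called, and black lines are medians. All 13 mitochondrial genes lie at 1.12 or above, while nuclear members spread from −3.90 (Ndufa4l2) to 4.38 (Cox6b2).

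Complex I has 7 mitochondrially encoded subunits, which form its proton-pumping membrane arm, and all 7 rose in FIBCL against SCDM. For mt-Nd1 the scaled TPM was 6261, 6502 and 7069 in FIBCL, 3110, 2921 and 3015 in SCDM, 3233, 3527 and 3926 in SCDM/FGF, and 3569, 3918 and 3701 in spheres. FIBCL lay above all others, and SCDM lay below the spheres. The difference from SCDM was 1.13 ± 0.07 (SE, adjusted p = 7.21e-08). For mt-Nd4 the scaled TPM was 6879, 7156 and 7609 in FIBCL, 2741, 2521 and 2513 in SCDM, 2328, 2468 and 2785 in SCDM/FGF, and 3277, 3530 and 3464 in spheres. Both control media lay below the spheres for this gene, and the difference between FIBCL and SCDM was 1.48 ± 0.07 (adjusted p = 4.8e-09). mt-Nd2 and mt-Nd5 were higher by 1.33 and 1.24. mt-Nd6 is the only protein gene of the opposite strand of the mitochondrial genome (chrM:13552-14070, minus strand), which is transcribed from its own promoter. Its scaled TPM was 4195, 4266 and 4568 in FIBCL, 1840, 1670 and 1676 in SCDM, 1596, 1668 and 1856 in SCDM/FGF, and 2123, 2296 and 2271 in spheres. Its difference of 1.33 ± 0.07 (adjusted p = 6.28e-09) was within the range of the plus-strand genes. The study's methods name an orientation mode for the alignment but do not say whether reads were assigned to genes by strand, so that reads of mt-Nd6 may include antisense RNA of the other strand.

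Of complex III the mitochondrial genome encodes mt-Cytb, the cytochrome b subunit. Its scaled TPM was 11899, 12457 and 12942 in FIBCL, 4807, 4441 and 4521 in SCDM, 3933, 4279 and 4760 in SCDM/FGF, and 5253, 5823 and 5480 in spheres. FIBCL lay above all others, and the difference from SCDM was 1.44 ± 0.07 (adjusted p = 8.62e-09). Of complex IV it encodes the catalytic core mt-Co1 and its neighbours mt-Co2 and mt-Co3. For mt-Co1 the scaled TPM was 19523, 20305 and 21075 in FIBCL, 8364, 7898 and 8048 in SCDM, 7401, 7916 and 8462 in SCDM/FGF, and 8603, 9383 and 9209 in spheres. The difference from SCDM was 1.32 ± 0.06 (adjusted p = 5.72e-09). mt-Atp8 had the highest level of all members, with 42405, 45122 and 46472 scaled TPM in FIBCL, 20565, 19790 and 21130 in SCDM, 17390, 19034 and 20428 in SCDM/FGF, and 18872, 20736 and 21983 in spheres. The 3 groups other than FIBCL overlapped for this gene. The difference between FIBCL and SCDM was 1.12 ± 0.08 (adjusted p = 2.18e-07), the smallest among the 13. mt-Atp8 made up 38 to 45.2% of the mitochondrial sum, and without it the log2 ratio of mitochondrial to nuclear RNA was still higher in FIBCL than in SCDM by 0.90.

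For 6 mitochondrial genes the reads were divided with the nuclear copies named above, and most of them were assigned to the copy in 5. Over the 12 libraries the copy held 96.1% of the pooled TPM of mt-Co2, 92.8% for mt-Co3, 88.3% for mt-Atp6, 86.8% for mt-Nd4l and 77.3% for mt-Nd3, but 15.6% for mt-Co1. The 5 genes with most of the pooled TPM in the copy had the largest SEs among the 13. mt-Co3 had 550, 1451 and 1428 scaled TPM in FIBCL and 502, 637 and 335 in SCDM, so that the groups overlapped. Its difference of 1.13 ± 0.47 just passed the threshold (adjusted p = 0.0497), and the call was lost when SCDM replicate 1 or 3 or FIBCL replicate 2 or 3 was left out, with differences of 0.88 to 1.17. With gene and copy added together, mt-Co3 had 11362, 11709 and 11067 TPM in FIBCL, 7087, 6739 and 6826 in SCDM, 5770, 6012 and 6422 in SCDM/FGF, and 7666, 8282 and 8088 in spheres. The groups then separated, and the difference was 1.13 ± 0.07. mt-Nd4l, for which the gene alone gave the largest difference of 2.05 ± 0.16, fell to 1.06 ± 0.06 after pooling. mt-Nd3 moved from 1.72 ± 0.20 to 1.00 ± 0.07, mt-Atp6 from 2.03 ± 0.41 to 1.43 ± 0.07 and mt-Co2 from 1.72 ± 0.22 to 1.35 ± 0.07. After pooling all 13 genes still rose against SCDM, now within the narrower range of 1.00 to 1.48 with a median of 1.33. The levels drew together too. The highest over the lowest mean TPM among the 13 was 54.8 for the genes alone and 10.4 after pooling, where mt-Nd6 was lowest at 2407 TPM. Pooling was added after the data had been seen. The mitochondrial share with copies was 15.8 to 16.2% in FIBCL and 8.02 to 8.30% in SCDM, and the log2 ratio to the nuclear sum differed by 0.77.

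**Figure D3:**
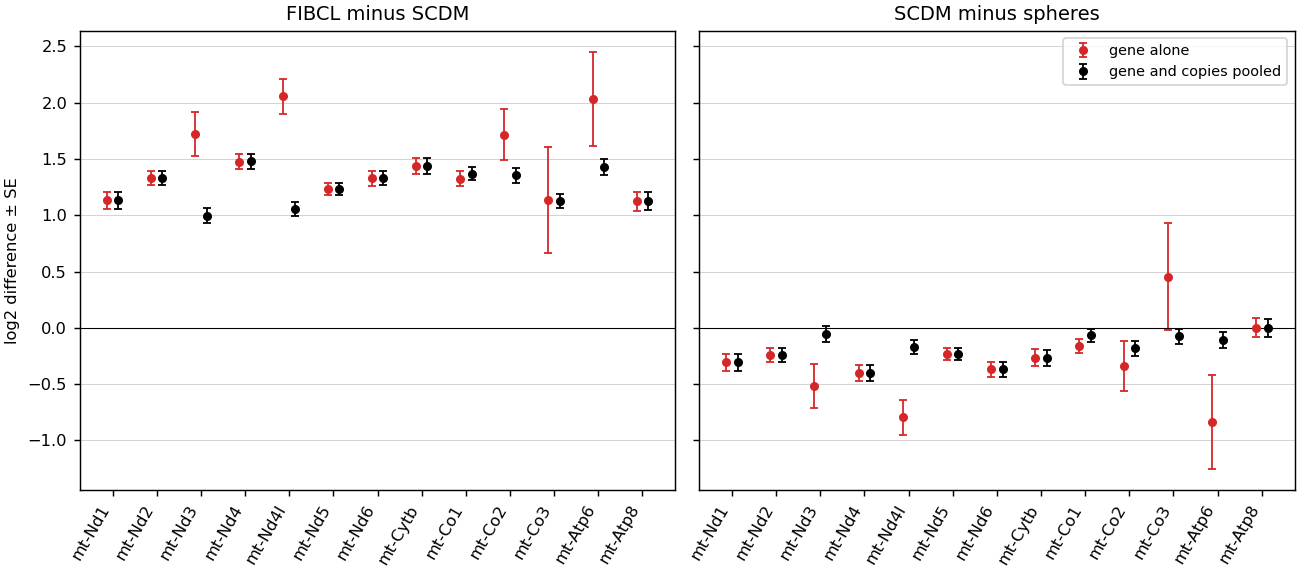
Log2 difference with its SE (y axis) of the 13 mitochondrially encoded genes (x axis) for FIBCL minus SCDM on the left and SCDM minus spheres on the right, for the gene alone (red) and for the gene pooled with its nuclear copies (black). Pooling narrows the FIBCL differences to 1.00 to 1.48 and brings mt-Nd3, mt-Nd4l and mt-Atp6 to −0.05, −0.17 and −0.11 in SCDM against spheres.

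Both ribosomal RNAs of the mitochondrion, which are not members, were also higher. mt-Rnr1 had 437, 501 and 1004 TPM in FIBCL and 183 to 206 in SCDM, and mt-Rnr2 had 750, 787 and 1284 in FIBCL and 212 to 256 in SCDM. FIBCL replicate 3 stood above the other libraries of its group for both. The ribosomal RNA entry CT010467.1 was also highest there, at 40344 TPM against 27878 and 28739 in FIBCL replicates 1 and 2. What it shares with these mitochondrial values was not tested. The 22 mitochondrial tRNA genes were listed at 0 in all libraries.

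Among the 39 nuclear subunits of complex I that were tested, 11 rose and 1 fell against SCDM, with a median of 0.27. Of all genes, 23.6% rose and 28.4% fell, so that the risen count is near that of genes in general. The subunits that rose are accessory ones, and they include Ndufa4, counted here by its name although it is now placed in complex IV. Ndufa1, a small membrane subunit needed for assembly, had 384, 374 and 349 scaled TPM in FIBCL, 143, 164 and 160 in SCDM, 163, 178 and 182 in SCDM/FGF, and 180, 199 and 181 in spheres. FIBCL lay above the rest, and the difference was 1.24 ± 0.07 (adjusted p = 1.14e-08). Ndufb9 and Ndufa12 followed at 0.98 and 0.95, and Ndufs4, an accessory subunit whose loss causes a mitochondrial encephalopathy in mice and humans, at 0.84. The core subunits Ndufs1, Ndufs3, Ndufs7, Ndufs8, Ndufv1 and Ndufv2 of the matrix arm were not called in this comparison, at −0.00, −0.47, −0.09, −0.34, 0.05 and 0.37. Of the 8 assembly factors, Ndufaf7 rose by 0.61, and Ndufaf6 and Ndufaf8 fell by 0.83 and 0.80. Ndufb4 had a mean of 18.0 TPM while its copy Ndufb4c, annotated as a processed pseudogene and itself a member by name, had 175.9, so that their levels cannot be told apart.

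On scaled TPM, none of the 4 subunits of complex II, the succinate dehydrogenase, was called in any of the 6 comparisons. Sdha, the flavoprotein, had 89.7, 91.2 and 92.9 scaled TPM in FIBCL, 94.3, 95.6 and 92.4 in SCDM, 106, 106 and 105 in SCDM/FGF, and 109, 111 and 107 in spheres. FIBCL and SCDM overlapped and both lay below the spheres, by 0.25 ± 0.03 for FIBCL and 0.21 ± 0.03 for SCDM on the log2 scale. Those differences passed the adjusted p (2.21e-05 and 0.000208) but not the size of 0.5. Sdhb, Sdhc and Sdhd differed between FIBCL and SCDM by 0.07, 0.29 and −0.05. These results rest on the scaling. On the TPM as deposited, Sdha had 70.7 to 75.0 in FIBCL, 97.8 to 102 in SCDM, 103 to 108 in SCDM/FGF and 127 to 128 in spheres, with no overlap. Sdhb, Sdhc and Sdhd were then also lower in FIBCL than in SCDM without overlap. Whether these genes were called on the deposited TPM is not given here.

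Of the 8 nuclear subunits of complex III, 4 rose and 0 fell against SCDM, with a median of 0.58, beside 23.6% and 28.4% of all genes. Uqcr11, the smallest subunit, had 566, 612 and 538 scaled TPM in FIBCL, 236, 251 and 223 in SCDM, 301, 318 and 351 in SCDM/FGF, and 237, 286 and 229 in spheres. SCDM/FGF lay between SCDM and FIBCL. The difference between FIBCL and SCDM was 1.27 ± 0.09 (adjusted p = 1.27e-07), the largest of the nuclear members outside the isoform pairs. Uqcrh, the hinge protein, had 833, 882 and 860 in FIBCL and 393 to 459 in the other 9 libraries, a difference of 0.96 ± 0.05 from SCDM. Uqcrq and the Rieske protein gene Uqcrfs1 rose by 0.81 and 0.68. The core proteins Uqcrc1 and Uqcrc2 were not called, at 0.29 and −0.11. Cycs, the gene of the mobile carrier cytochrome c, had 30.6, 31 and 33.3 scaled TPM in FIBCL, 22.6, 19.8 and 21.1 in SCDM, 20.9, 23.0 and 27.9 in SCDM/FGF, and 17.2, 17.6 and 21.2 in spheres. FIBCL lay above all others on scaled TPM. Cycs rose against SCDM by 0.56 ± 0.11 (adjusted p = 0.000537) and against spheres by 0.74 ± 0.11 (adjusted p = 6.67e-05), and it was not called against SCDM/FGF, at 0.40. These differences rest on the scaling. On the TPM as deposited, FIBCL replicate 2 had 25.1, beside up to 27.5 in SCDM/FGF and 25.2 in spheres, so that FIBCL overlapped both.

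Of 16 nuclear subunits of complex IV that were tested, 9 rose and 2 fell against SCDM, with a median of 0.72, beside 23.6% and 28.4% of all genes. Several of those that rose are the common forms of subunits that exist in pairs. Cox6a1 had 841, 823 and 861 scaled TPM in FIBCL and 373 to 467 in the other libraries, a difference of 0.94 ± 0.06 from SCDM (adjusted p = 7.61e-08). Cox7a2 rose by 1.06, Cox5b by 0.77, Cox7c by 0.75 and Cox8a by 0.70, while Cox4i1, Cox5a, Cox6c and Cox7b were not called, at 0.45, 0.14, 0.26 and 0.09. Among 9 assembly factors tested, 3 rose and 3 fell. Those that rose, Cox17 (1.14), Cox19 (1.00) and Cox16 (0.53), include a pair of proteins that handle the copper of the enzyme. Cox17, the copper chaperone, had 272, 299 and 315 in FIBCL, 127, 117 and 159 in SCDM, 157, 156 and 141 in SCDM/FGF, and 107, 121 and 115 in spheres, and FIBCL lay above all others. Those that fell were Cox10 (−0.91), which makes the haem precursor, and Cox20 (−0.82) and Cox18 (−0.75), which handle the Co2 protein. The level of Cox10 was low, at 2.31 to 3.31 scaled TPM in FIBCL and 5.16 to 6.77 in SCDM. Of the exonic bases of Cox20, 91.1% overlap Hnrnpu on the opposite strand, and 56.8% of those of Cox16 overlap Gm20498 on the same strand, so that these values may include reads of the neighbour.

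ATP synthase had 17 nuclear genes tested, of which 4 rose and 1 fell against SCDM, with a median of 0.25. Beside 23.6% of all genes that rose and 28.4% that fell, the risen count is no more than that of genes in general. Atp5pb of the peripheral stalk had 210, 215 and 219 scaled TPM in FIBCL, 142, 129 and 132 in SCDM, 137, 146 and 148 in SCDM/FGF, and 119, 135 and 126 in spheres, a difference of 0.67 ± 0.05 from SCDM (adjusted p = 3.74e-07). Atp5g3, Atp5d and Atp5mpl rose by 0.65, 0.62 and 0.57. Without rescaling such differences were smaller. As deposited, Atp5mpl had 426, 438 and 430 TPM in FIBCL and 402, 350 and 400 in SCDM, and Atp5d had 267 to 295 and 234 to 252. Atp5e, the small epsilon subunit of the central stalk, fell by 0.64 ± 0.07 (adjusted p = 8.79e-06), with 326, 332 and 296 in FIBCL and 474 to 521 in SCDM. The catalytic subunits Atp5a1 and Atp5b were not called, at 0.23 and 0.17. Atp5b had the highest mean level among the nuclear members, 1016 TPM, against 25125 for mt-Atp8 in the same enzyme. At 204 bases, mt-Atp8 is about as short as the fragments selected for sequencing, so that its TPM is uncertain beside longer genes. Its neighbour mt-Atp6, pooled with its copy, had group means of 5317 (SCDM/FGF) to 11937 TPM (FIBCL). Since mt-Atp8 and mt-Atp6 share 43 bases, their TPM cannot be taken as levels of separate RNAs. The median over the tested members was 125 TPM for the nuclear and 2547 TPM for the mitochondrial genes, or 6402 TPM for the latter with their copies pooled.

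The largest changes of single nuclear members were in the tissue-specific forms of complex IV subunits and in Ndufa4l2. Cox6b2, known as the testis form of the subunit Cox6b, had 700, 756 and 722 scaled TPM in FIBCL, 33.9, 38.4 and 29.6 in SCDM, 43.6, 60.7 and 39.4 in SCDM/FGF, and 33.3, 38.4 and 34.2 in spheres. FIBCL was far above all others, by 21.4-fold over SCDM on the mean (log2 difference 4.38 ± 0.14, adjusted p = 1.49e-10), 15.1-fold over SCDM/FGF and 20.5-fold over spheres. Its common partner Cox6b1 had 763, 822 and 797 in FIBCL and 439 to 557 elsewhere, so that Cox6b2 made up 47.5 to 47.9% of the summed TPM of the pair in FIBCL and 6.09 to 10.2% elsewhere. Cox7a1, the heart and muscle form of Cox7a, had 18.4, 18.4 and 18.0 in FIBCL, 3.39, 0.925 and 2.87 in SCDM, 3.52, 6.00 and 5.48 in SCDM/FGF, and 2.06, 3.01 and 0.428 in spheres. It was 7.63-fold higher than in SCDM (2.59 ± 0.38, adjusted p = 7.29e-05), and it made up 5.71 to 6.37% of the pair with Cox7a2 in FIBCL, 0.67 to 2.35% in SCDM, 2.39 to 3.63% in SCDM/FGF and 0.31 to 1.9% in spheres. Cox4i2, a form known from lung and from low oxygen, had 7.26, 8.49 and 13 in FIBCL, 2.05, 1.38 and 2.60 in SCDM, 4.29, 7.47 and 2.07 in SCDM/FGF, and 1.02, 1.06 and 0.664 in spheres. It rose against SCDM by 1.80 ± 0.32 (adjusted p = 0.000387). FIBCL overlapped SCDM/FGF, against which the difference was 1.00 ± 0.32 (adjusted p = 0.0167), and this call was lost without SCDM/FGF replicate 3 (0.62) or FIBCL replicate 3 (0.79).

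The opposite pattern was seen for Ndufa4l2, a gene known to be induced by low oxygen and a relative of Ndufa4. Its scaled TPM was 0.538, 0.345 and 0.460 in FIBCL, 22, 17.4 and 23.0 in SCDM, 32.8, 43.8 and 28.0 in SCDM/FGF, and 1.42, 2.41 and 1.67 in spheres. The 4 groups did not overlap. It was 46.5-fold lower in FIBCL than in SCDM on the mean (log2 difference −3.90 ± 0.18, adjusted p = 2.78e-09) and 77.9-fold lower than in SCDM/FGF, from levels under 1 TPM in FIBCL. Ndufa4 had 444, 459 and 497 in FIBCL and 241 to 254 in SCDM, a difference of 0.92 ± 0.10 (adjusted p = 4.93e-06). Cox6a2, a heart and muscle form, was listed at 0 in the 3 FIBCL libraries and had 5.40, 2.46 and 4.50 in SCDM, 0.333, 0 and 0 in SCDM/FGF, and 0, 0 and 0.294 in spheres. Above 1 scaled TPM it was seen in SCDM only. Cox8b, another heart and muscle form, was at 0 in all FIBCL and SCDM/FGF libraries, with 2.14, 1.17 and 1.82 in SCDM and 1.03, 1.62 and 1.60 in spheres. No fold is given against a group at 0. The summed level of 12 muscle marker genes was 2.7 to 2.8 in SCDM and 3.6 to 5.7 in FIBCL, with 4 of the genes at 0 in all libraries of each.

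**Figure D4:**
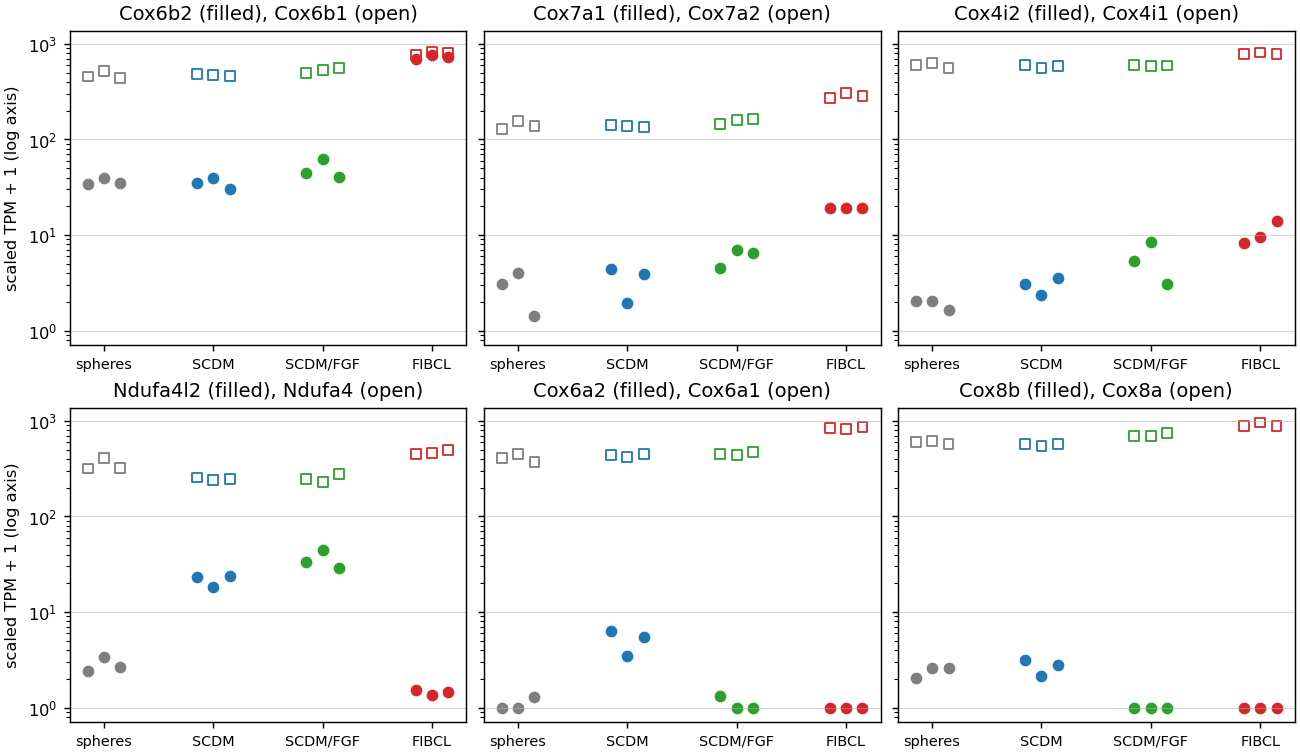
Scaled TPM + 1 (y axis, log scale) of 6 tissue-specific forms (filled circles) and their common partners (open squares) in the 12 libraries, by group (x axis). Cox6b2 reaches the level of Cox6b1 in FIBCL, where both lie at 700 to 822, while Ndufa4l2 lies at 0.345 to 0.538 there and at 17.4 to 43.8 in both control media.

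For the nuclear members the sequence around the start of transcription was searched for motifs of regulators known to act on respiratory genes. The windows of 300 bases (250 before and 50 after the start) come from RefSeq (GRCm38.p6), and 85 of the 109 nuclear members were matched by symbol. The letters searched, on both strands, were GCGCATGC for NRF1, CCGGAAGT for the ETS factor GABPA, AAGATGGC for YY1 and TGACGTCA for CREB, and the NRF1 letters overlap their own reverse complement. NRF1 letters were in 13 of the 85 members (15.3%) and in 3.05% of 27025 genes in the table, YY1 letters in 13 (15.3% against 3.19%), ETS letters in 9 (10.6% against 4.31%) and CREB letters in 5 (5.88% against 2.03%). At least 1 of the 4 was in 42.4% of the members and in 11.6% of all genes. Of the matched members, 10 of 28 that rose in FIBCL against SCDM held one (35.7%), 3 of 5 that fell (60%) and 23 of 50 that were not called (46%). The windows of 4 members are shown with motif letters in capitals: Cox6b2, which rose most and held none of the 4, Uqcr11 and Cycs, which rose, and Cox20, which fell.
Cox6b2 (chr7:4753045-4753344, minus strand): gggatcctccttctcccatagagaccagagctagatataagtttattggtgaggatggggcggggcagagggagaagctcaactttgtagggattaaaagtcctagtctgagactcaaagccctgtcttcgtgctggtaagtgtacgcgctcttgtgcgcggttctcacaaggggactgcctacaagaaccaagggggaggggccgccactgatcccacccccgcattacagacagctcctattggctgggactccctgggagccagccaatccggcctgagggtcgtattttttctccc
Uqcr11 (chr10:80406772-80407071, minus strand): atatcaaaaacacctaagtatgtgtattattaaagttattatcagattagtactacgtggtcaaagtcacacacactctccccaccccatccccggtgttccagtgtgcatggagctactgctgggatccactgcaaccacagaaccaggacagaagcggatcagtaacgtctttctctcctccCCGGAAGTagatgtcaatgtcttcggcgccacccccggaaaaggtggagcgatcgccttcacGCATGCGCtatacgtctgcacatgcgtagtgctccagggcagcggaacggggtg
Cycs (chr6:50566520-50566819, minus strand): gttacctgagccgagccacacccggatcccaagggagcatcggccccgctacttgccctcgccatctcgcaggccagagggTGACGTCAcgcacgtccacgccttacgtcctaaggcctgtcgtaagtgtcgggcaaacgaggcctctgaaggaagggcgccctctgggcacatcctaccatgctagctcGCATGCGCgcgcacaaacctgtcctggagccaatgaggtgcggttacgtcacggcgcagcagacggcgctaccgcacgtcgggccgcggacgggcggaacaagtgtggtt
Cox20 (chr1:178318903-178319202, plus strand): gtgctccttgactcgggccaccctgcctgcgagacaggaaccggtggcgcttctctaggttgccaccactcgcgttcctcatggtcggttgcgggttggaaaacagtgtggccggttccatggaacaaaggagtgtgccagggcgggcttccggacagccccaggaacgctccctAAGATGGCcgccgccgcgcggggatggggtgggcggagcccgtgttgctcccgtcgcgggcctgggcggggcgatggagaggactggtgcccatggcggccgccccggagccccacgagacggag
The capitals are ETS and then NRF1 letters in Uqcr11, CREB and then NRF1 letters in Cycs, and YY1 letters in Cox20. Motif letters describe the sequence and do not show that a factor was bound.

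The regulators themselves and other mitochondrial genes, which are not members, were counted for FIBCL against SCDM in fixed lists. Their counts stand beside 23.6% of all genes that rose and 28.4% that fell. Of 17 regulators tested, 6 rose and 5 fell. Ppargc1a, a coactivator of mitochondrial genes, had 2.56, 2.88 and 2.97 scaled TPM in FIBCL and 0.151 to 0.448 in SCDM (1.55 ± 0.15), and against spheres it was not called, at 0.47. Esrrb rose by 1.68 from levels at or under 0.162 in SCDM, and Gabpa and Myc fell by 0.59 and 2.94. Nrf1 was not called, at −0.21. Of 22 genes of mitochondrial DNA transcription and replication, 1 rose and 5 fell. The one that rose was Polrmt, the mitochondrial RNA polymerase, with 20.7, 18.2 and 21.9 in FIBCL, 14.0, 14.2 and 12.8 in SCDM and 22.1, 21.2 and 17.9 in spheres, so that FIBCL overlapped the spheres. Tfam, which packages and activates mitochondrial DNA, was not called, at 0.11 ± 0.26. Of 21 genes of mitochondrial RNA processing, Lrpprc, which stabilizes mitochondrial mRNA, rose by 0.51, and Hsd17b10 of the RNase P complex and Rexo2 fell by 1.12 and 0.83. Of 22 genes for other mitochondrial proteins such as import and channel proteins, 6 rose and 3 fell with a median of 0.18, of 78 mitochondrial ribosome genes 11 rose and 8 fell with a median of 0.05, of 17 genes of the citric acid cycle and pyruvate dehydrogenase 4 rose and 1 fell with a median of 0.20, and of 37 further subunits and assembly factors outside the naming rule 8 rose and 6 fell with a median of 0.06. Of 15 housekeeping genes, 2 rose and 1 fell with a median of −0.15.

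Against SCDM/FGF the picture for FIBCL was similar. All 13 mitochondrial genes rose with a median of 1.36 and a range of 0.89 to 2.19, and 26 nuclear members rose and 7 fell with a median of 0.19, beside 22.3% of all genes that rose and 27.7% that fell. The largest called differences of nuclear members outside the isoform pairs were Ndufa1 (1.08), Uqcrh (1.03) and Cox19 (0.97), and the lowest were Cox20 (−0.82), Ndufaf8 (−0.67), Cox10 (−0.65) and Ndufs3 (−0.61), a core subunit of complex I. On the deposited TPM, 14 nuclear members rose and 20 fell with a median of −0.11, and 12 mitochondrial genes rose, beside 15.3% of all genes that rose and 38.4% that fell with a median of −0.31. Against spheres, again all 13 mitochondrial genes rose, with a median of 1.16 and a range of 0.82 to 1.59, and 37 nuclear members rose and 5 fell with a median of 0.30, beside 22.6% and 28.5% of all genes. Cox17 (1.36), Uqcr11 (1.19), Ndufa12 (1.16) and Uqcrq (1.04) were highest among the nuclear genes outside the isoform pairs, and Cox20 (−1.08) and Cox10 (−0.89) were lowest. On the deposited TPM the mitochondrial count against spheres was 8 and the nuclear counts turned to 6 risen and 33 fallen with a median of −0.24, beside 12.8% of all genes that rose and 49.4% that fell with a median of −0.51. The 3 comparisons share the FIBCL libraries, so that their counts are not independent.

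**Figure D5:**
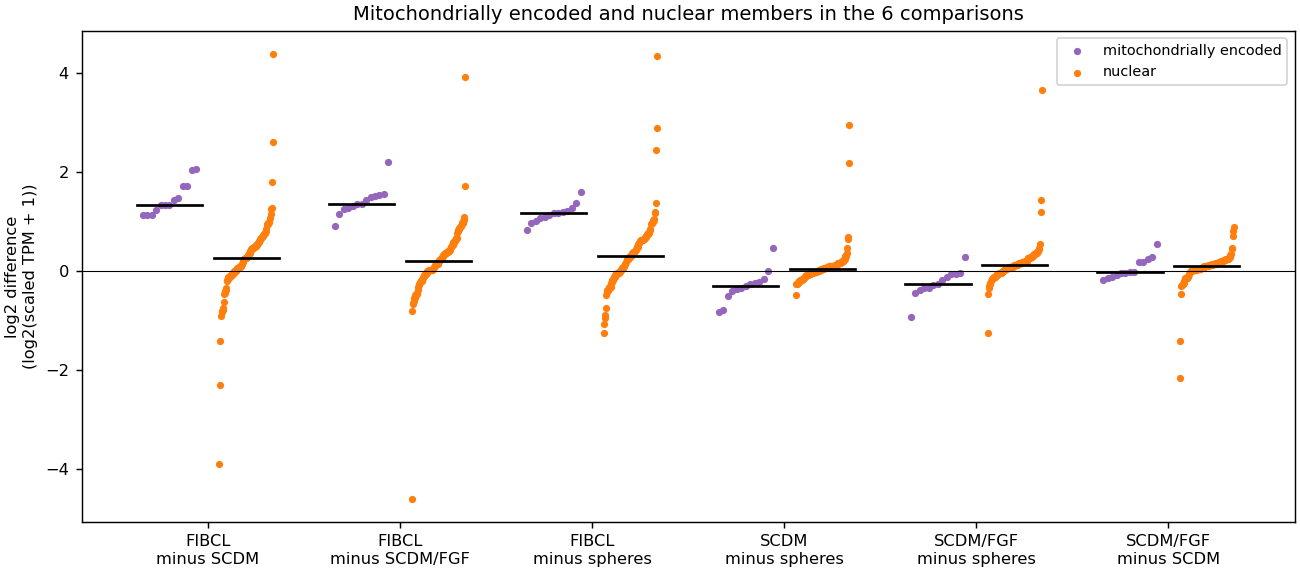
Log2 differences (y axis) of the 13 mitochondrially encoded (purple) and 102 nuclear members (orange) in the 6 comparisons (x axis), each set ordered by its values, with medians as black lines. The mitochondrial medians are 1.16 to 1.36 in the 3 comparisons with FIBCL and −0.31 to −0.03 in the other 3.

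Between the control media and the spheres few members were called. In SCDM against spheres 0 mitochondrial genes rose and 2 fell with a median of −0.31, and 3 nuclear members rose and 0 fell, beside 14.3% of all genes that rose and 14.2% that fell. For 9 of the 13 genes the libraries of both groups did not overlap, with SCDM as the lower group in all 9, beside 30.3% of all genes that were lower without overlap. The called genes were mt-Nd4l (−0.80) and mt-Nd3 (−0.52), and neither was called with the nuclear copies pooled, at −0.17 and −0.05. mt-Nd3 was also lost when spheres replicate 2 or 3 or SCDM replicate 2 or 3 was left out, with differences of −0.31 to −0.59. The nuclear members that rose were Ndufa4l2 (2.95), Cox6a2 (2.18) and Atp5g2 (0.68). In SCDM/FGF against spheres mt-Nd4l fell by 0.93 (0.15 lower with copies pooled, not called), Ndufa4l2 (3.65), Cox4i2 (1.44), Cox7a1 (1.18) and Atp5g2 (0.55) rose and Cox8b fell, beside 14.6% and 13.4% of all genes. In SCDM/FGF, the call of Atp5g2 was lost when replicate 1 or 2 of either group was left out (0.35 to 0.57), and that of Cox7a1 without spheres replicate 3 or SCDM/FGF replicate 2 or 3 (0.75 to 1.12). Between SCDM/FGF and SCDM, which differ in bFGF, 0 mitochondrial genes were called. Of the nuclear members, Ndufa4l2 rose by 0.70 ± 0.18 (adjusted p = 0.00687) and Cox6a2 and Cox8b fell to or near 0, beside 12.3% of all genes that rose and 10.6% that fell. At an adjusted p alone, with no limit on size, 24 of the 115 members were higher and 6 lower in that comparison, beside 21.8% and 21.3% of all genes.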

How the data were processed

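RNA-seq of 12 libraries in 4 groups was analysed. Per the study's methods, SeqPrep and Sickle served for read trimming, TopHat for alignment and RSEM for gene quantification. The deposited table gives TPM for 55487 genes, as made by the authors. The columns taken for FIBCL are named FIBC, which the study also uses for the mixture without LIF. They were matched to the FIBCL samples because the labels hold no other such group, so the presence of LIF rests on the labels. TopHat was run in an orientation mode, and whether RSEM assigned reads by strand, like the genome build, is not given in the sources used here. Positions are from GENCODE M21 (GRCm38), where all 122 members were found by identifier.

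TPM does not keep read numbers, so depth is unknown and no count model was run. The 16016 genes that reached 1 TPM in 3 or more libraries were kept. Libraries were scaled by the mean log2 ratio over 8434 genes with at least 5 TPM everywhere, trimmed by 30% at each end. Limma 3.58.1 (R 4.3.3) was fitted to log2(scaled TPM + 1) in 1 model of the 4 groups, with Benjamini-Hochberg adjustment over all genes in each of 6 comparisons. A gene was called at an adjusted p under 0.05 and a difference of at least 0.5. The difference is on the log2(value + 1) scale and understates low genes. The fit was checked on simulated data. P-values measure the spread between what the labels call biological replicates.

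Near-identical copies (at least 95% identity over 150 bases, or most of a shorter copy) were found with BLAST 2.17.0. The named genes were all mitochondrial members, the isoform pairs, Sdha to Sdhd, Cycs, and the 5 highest and 5 lowest other called nuclear members with a mean of at least 5 TPM in each comparison, with the 3 highest and 3 lowest of each other list. Catalytic and other subunits named beside them were chosen after their values were seen. The members and lists were chosen with earlier results of these data known. Alternatives covered scaling, filter, pseudocount, variance model, threshold, samples in the model, each library left out and the replicate number as a block. Plots were made with Python 3.11.15 and matplotlib 3.10.9.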

Additional observations from a re-analysis of the deposited data

Results flagged for a closer look

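Members that were called in opposite directions from the spheres in 2 media, where the difference between the media was itself called, stood out in 3 genes. Ndufa4l2 was lower than in spheres in FIBCL (−0.96) and higher in SCDM (2.95) and SCDM/FGF (3.65), and FIBCL differed from these media by −3.90 and −4.61 on the log2 scale. mt-Nd3 was higher than in spheres in FIBCL (1.20) and lower in SCDM (−0.52), a difference of 1.72. mt-Nd4l was higher in FIBCL (1.26) and lower in SCDM (−0.80) and SCDM/FGF (−0.93), differences of 2.05 and 2.19. With the nuclear copies pooled, the opposite directions of mt-Nd3 and mt-Nd4l were no longer called, since the values in SCDM against spheres were −0.05 and −0.17.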

How the results depend on the processing

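None of the 126 single-gene results counted below reversed, and no ratio or share did. Some named genes that were not called did change direction without rescaling, among them Sdhb and Sdhc. On scaled TPM both were higher in FIBCL than in SCDM. As deposited, Sdhb had 90.7 to 102 TPM in FIBCL and 120 to 122 in SCDM. Sdhc had 65.2 to 71.7 TPM in FIBCL and 71.9 to 77.4 in SCDM. Without rescaling, the median of the nuclear members changed sign in FIBCL, from 0.26 to −0.13 against SCDM, 0.19 to −0.11 against SCDM/FGF and 0.30 to −0.24 against spheres, while that of all genes was −0.40, −0.31 and −0.51. The higher ratio of mitochondrial to nuclear RNA in FIBCL kept its direction under all alternatives run. As the gap between median log2(TPM + 1) values, the log2 ratio differed by 1.04 (FIBCL minus SCDM), 1.18 (minus SCDM/FGF) and 0.81 (minus spheres). Without mt-Atp8 it was 0.90 for FIBCL minus SCDM, −0.30 for SCDM minus spheres and −0.10 for SCDM/FGF minus SCDM. For FIBCL minus SCDM, SCDM/FGF and spheres in this order, the mitochondrial share differed by 5.83, 6.28 and 4.55 percentage points relative to the summed TPM of nuclear genes, by 3.22, 3.34 and 2.30 without mt-Atp8 and by 7.74, 8.35 and 6.13 with copies pooled. Pooling, chosen after seeing the data, gave −1.61 for SCDM minus spheres and −2.22 for SCDM/FGF minus spheres. Without mt-Atp8 the values were −1.05 for SCDM/FGF minus spheres and −0.12 for SCDM/FGF minus SCDM.

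Counts of members are given as higher and lower. For the adjusted p alone, the share of all genes is given above only for SCDM/FGF minus SCDM, and it is not given at 1 or 1.5. Those counts show how the calls depend on the limit, and not whether the members stand out from other genes. Without rescaling they were 25 and 20 for FIBCL minus SCDM and 14 and 33 for FIBCL minus spheres, and the lower count was 20 for FIBCL minus SCDM/FGF, 5 for SCDM minus spheres and 9 for SCDM/FGF minus spheres. With the adjusted p alone they were 71 and 17 (FIBCL minus SCDM), 64 and 21 (minus SCDM/FGF), 18 lower (minus spheres), 13 and 19 (SCDM minus spheres), 35 and 10 (SCDM/FGF minus spheres) and 24 and 6 (SCDM/FGF minus SCDM). At a difference of at least 1 the FIBCL counts were 20 and 3, 16 and 1, and 20 and 2 against SCDM, SCDM/FGF and spheres. The lower count was then 0 for SCDM minus spheres and 1 for SCDM/FGF minus spheres, and the higher count 0 for SCDM/FGF minus SCDM. At 1.5 the FIBCL counts were 7 and 2, 6 and 1, and 4 and 0, with 0 lower for SCDM minus spheres, 1 and 0 for SCDM/FGF minus spheres and 0 and 1 for SCDM/FGF minus SCDM. For SCDM minus spheres, 1 member was lower with no filter, without the mean trend in limma, with only these groups in the model or with the replicate number as a block, and 0 with copies pooled. For SCDM/FGF minus spheres, 2 were higher with no filter, and 1 was lower with copies pooled or a floor of 5 TPM, under which 0 were lower for SCDM/FGF minus SCDM. The causes were not tested.

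With single libraries left out, the counts were 43 to 51 and 8 to 10 (FIBCL minus SCDM), 36 to 40 and 7 to 9 (minus SCDM/FGF), 48 to 53 and 5 to 6 (minus spheres), 2 to 4 and 1 to 4 (SCDM minus spheres), 2 to 5 and 2 to 4 (SCDM/FGF minus spheres) and 1 to 3 and 1 to 3 (SCDM/FGF minus SCDM). The libraries that moved a count by over 1.5 times were spheres replicate 2 and SCDM replicates 2 and 3 (1 lower each) and SCDM replicate 1 (4 lower) for SCDM minus spheres, SCDM/FGF replicates 2 (2 higher) and 3 (4 lower) for SCDM/FGF minus spheres, and SCDM replicates 1 (1 lower) and 2 (2 higher) and SCDM/FGF replicates 1 and 3 (3 higher each) for SCDM/FGF minus SCDM. In the order of comparisons above, the log2 ratio was 0.76 to 0.82, 0.92 to 0.98, 0.57 to 0.66, −0.22 to −0.14, −0.38 to −0.29 and −0.18 to −0.13, and the share 4.91 to 5.04, 5.24 to 5.52, 3.64 to 3.97, −1.33 to −1.0, −1.73 to −1.41 and −0.56 to −0.27 percentage points. Of 2000 alternatives for 126 single-gene results, 1925 kept direction and call and 75 lost the call, 30 of these without rescaling. mt-Co3 against SCDM/FGF was lost without SCDM/FGF replicate 1 or 3 or FIBCL replicate 2 or 3 (0.94 to 1.33).

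Libraries with the same replicate number did not deviate together, since r was −0.12 to 0.10 over 18 pairs and −0.07 to 0.12 for other pairs. The numbers were not taken as pairs. With the replicate number as a block the other counts stayed within 1.5 times those given. The depth is unknown, so genes near 0 carry an error that cannot be given, and FIBCL differs from the other groups in the rRNA entry, in the listed TPM sum (899295 to 911076 against 982067 to 994845) and in marker genes.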
